A study of Mus musculus with 2112 samples.

Results

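Multipotent progenitors (MPP) are the blood-forming cells just below the stem cells in the bone marrow, and most of them are held to divide more often than stem cells do. The wells described here are the unstimulated single MPP that carry the submitters' cycling label, set against the unstimulated single MPP that do not. They were chosen by that label: 106 wells of old and 68 of young animals had it, and 15 and 33 did not, from 310 unstimulated single-cell MPP wells and 2046 single-cell wells in the series. Wells with the submitters' quality labels for few genes or pctTrans (not explained in the labels), or with the plasma label, were left out. How the submitters set the cycling label is not given in the sources used here. The label was read from the RNA of the same wells or moves with it, as the cell cycle genes below show, so differences between the labels describe the selection and are not independent evidence.

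Single cells were sorted from the bone marrow of old and young mice, and their polyadenylated RNA was read along its full length with SMART-seq2, which uses no molecular identifiers. The MPP described here were kept in HSPC medium with no ligand added, whatever their age. They came from 7 animals: old 2, old 3 and young 1 on plates 1 and 2 (plate set A), and old 2-2, old 2-3, young 2-1 and young 2-3 on plate 4 (plate set B). The labels give no age in months, strain, sex or sort gates for these animals, and the animal is the replicate throughout.

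A dividing cell raises genes in waves. Before and during DNA replication (G1/S) the factors of the E2F family drive genes for nucleotide supply, replication licensing and the polymerases. Later (G2/M) the genes for condensing, aligning and separating chromosomes follow. Progenitors also express genes of the blood lineages before they commit, such as Mpo for granulocytes and monocytes or Dntt for lymphocytes, at low levels and often side by side, which is called lineage priming.

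The numbers of wells in each animal were very uneven. Wells with and without the label numbered 37 and 4 in old 2, 20 and 6 in old 2-2, 26 and 3 in old 2-3, and 23 and 2 in old 3. They numbered 28 and 14 in young 1, 22 and 7 in young 2-1, and 18 and 12 in young 2-3. The share labelled cycling was 90.2%, 76.9%, 89.7% and 92.0% in the old animals in that order, and 66.7%, 75.9% and 60.0% in the young ones. The lowest old animal lay just above the highest young animal, so the age groups did not overlap. The means were 87.2% ± 6.93 (SD, n = 4) in old and 67.5% ± 7.96 (SD, n = 3) in young animals. The difference of 19.7 percentage points had an exact two-sided permutation p of 0.0571, the smallest that 4 against 3 animals can give, so it could not pass 0.05. It was 24.5 points within plate set A and 15.4 within plate set B, and 12.4 points with an exact permutation p of 0.2286 when wells with the few-genes and pctTrans labels were kept. Single animals had wide intervals: 95% exact binomial limits ran from 40.6% to 77.3% in young 2-3 and from 74.0% to 99% in old 3.

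**Figure D1:**
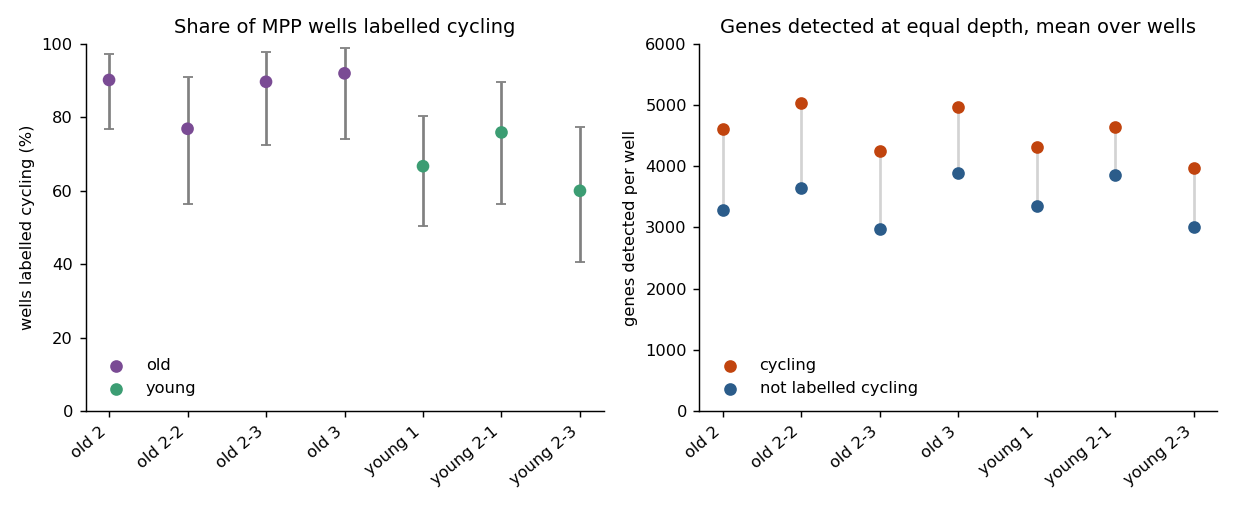
Left, the share of unstimulated MPP wells labelled cycling (%, y axis) in each animal (x axis), with exact 95% binomial limits as bars; the 4 old animals lie between 76.9% and 92.0% and the 3 young animals between 60.0% and 75.9%. Right, the mean number of genes detected per well after each well was thinned to 100000 counts, for both labels of each animal; the cycling mean is the higher of the pair in 7 of 7 animals.

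The other sorted populations and treatments carried the label in a smaller share of wells pooled over animals, given here without a test. Of unstimulated short-term stem cells (ST-HSC), 67 of 227 wells (29.5%) were labelled cycling, and 27.7% of the wells of long-term stem cells. Of MPP stimulated with the Toll-like receptor ligands LPS and Pam3CSK4 for 2 h, 43.0% of wells carried the label. They came from 9 animals, between 23.1% and 60.9%. Of the unstimulated MPP wells, from 7 animals, 78.4% carried it.

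Kit, Cd34 and Flt3, markers of MPP, were found in most wells under both labels, and other markers in fewer. After each well was thinned to 100000 counts, which all but 11 wells with the label and 3 without it reached, the receptor Kit was detected in 99.4% of wells with the label and 97.8% of those without. The stem and progenitor antigen Cd34 was found in 98.8% and 95.6%, and Flt3, the receptor that marks lymphoid-primed MPP, in 85.3% and 84.4%. Ly6a, also in the MPP surface list, was detected in only 54.6% and 51.1%. Its summed counts were lower with the label in 6 of 7 animals (log2 fold -0.54 ± 0.89, edgeR adjusted p = 0.812). Slamf1 (CD150), absent from most gates for MPP, was detected in 1.23% and in 0 of 45 wells. Taking 3 wells as the floor for a count of 0, a share of up to 6.67% is allowed there. The surface antigen Cd48 differed: 71.8% of wells with the label and 37.8% of those without had it, with the share higher in 7 of 7 animals. Its summed counts gave a log2 fold of 1.69 ± 1.12 (SE) that did not pass the test (edgeR adjusted p = 0.547).

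Genes of other cell types were few. Of the plasma and B cell list 2 of 9 genes passed the filter on low counts, of the T and NK cell list 1 of 10, of the macrophage list 3 of 11 and of the stroma and endothelium list 3 of 11, and none of these was called. The summed CPM of the plasma and B cell list ran from 124.7 to 196.6 over the cycling sums and from 0 to 361.8 over the others. The T and NK list ran from 94.1 to 226.5 and from 7.77 to 389.7. The macrophage list ran from 15.4 to 45.7 and from 3.18 to 220.5, and the stroma and endothelium list from 118.7 to 250.5 and from 73.2 to 1348.3. Ms4a1, Cd3e, Cd3g, Ncr1, Prf1, Timd4, Cdh5 and Kdr had no count in any sum. The sums without the label hold 2 to 14 wells each. The part of such cells in the results was not tested.

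Wells labelled cycling held more kinds of RNA. Their median total was 431098.5 counts against 374947.5, so depth was first made equal by thinning. At equal depth, 4539.9 ± 386.0 genes (SD over 7 animals) were detected per cycling well and 3430.5 ± 379.3 per well without the label. The difference of 1109.4 genes held in 7 of 7 animals, with an exact paired permutation p of 0.0156, the smallest that 7 pairs allow. The cell cycle lists hold 84 genes, so most of the additional genes lay outside them. The ribosomal RNA precursor Rn45s took a median of 14.06% of counts with the label and 16.63% without, and was left out before thinning.

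The label split the wells by their cell cycle genes, as its name says. Of 35 G1/S genes a median of 24 was detected in cycling wells and 5 in the others, and of 37 G2/M genes 16 and 4. The proliferation marker Mki67 was detected in 54% (95% exact binomial limits 46.0% to 61.8%) of cycling wells and 22.2% (11.2% to 37.1%) of the others. For the topoisomerase Top2a, which untangles replicated chromosomes, the shares were 74.2% and 20%. So neither marker alone gives the label, and both were found in part of the wells without it.

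No sharp step separated the labels. At full depth, of the 72 genes of both lists, the cycling well with the fewest had 7 (young 2-3), and the next ones 12, 13 and 14. The wells without the label that had the most held 23 (old 2-2), 21 and 20 genes. At or below 23 genes lay 24 cycling wells, and at or above 7 genes lay 44 of the 48 wells without the label. Some of the lowest cycling wells were shallow, with 15666 and 17900 counts at 12 and 13 genes, while the lowest had 311414 counts.

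**Figure D2:**
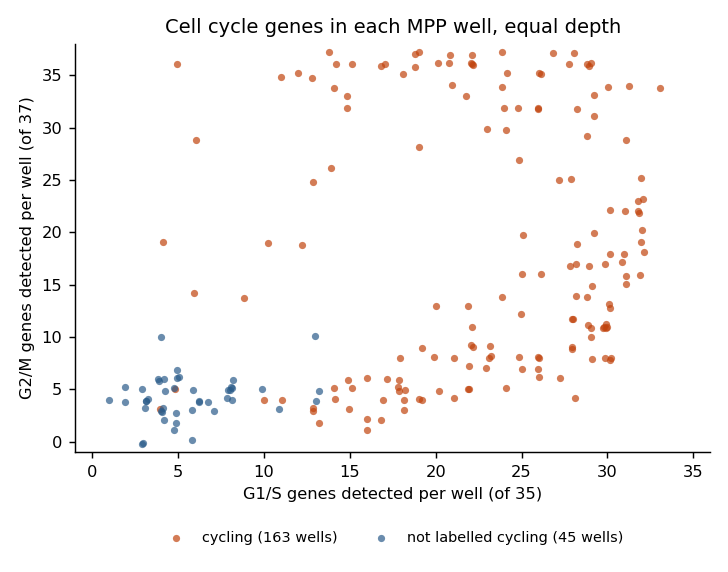
Each dot is an unstimulated MPP well thinned to 100000 counts, with its number of G1/S genes detected (x axis, of 35) and of G2/M genes detected (y axis, of 37); dots are shifted slightly at random. Wells without the label gather at the lower left, and cycling wells run from many G1/S genes with few G2/M genes to 28 or more G2/M genes.

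Cycling wells spread over the whole range. Between 0 and 9 G2/M genes were detected in 56 of the thinned wells (34.4%), 10 to 18 in 35, 19 to 27 in 20 and 28 to 37 in 52. The G1/S genes had medians of 19.5, 29, 28.5 and 22 in these ranges. Mki67 was detected in 7.14%, 37.1%, 95% and 100.0% of the wells of these ranges, a trend that its place among the 37 genes counted largely fixes, as it does for Cdk1. Mcm2, a subunit of the replicative helicase, averaged 762.9 CPM (counts scaled to a fixed library total) in the first range, 948.3 in the next and 277.1 in the last. Cdk1, the kinase that starts mitosis, averaged 43.2, 118.6 and 492.1 CPM in the same ranges. The animals differed: 13 wells of old 2 and 10 of old 3 but 1 well of young 2-1 lay in the highest range, and Top2a in the cycling sum of young 2-1 was 140.6 CPM while the other 6 animals lay between 518.3 and 736.2.

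Counts of the wells were then summed per animal and label, which gave 14 sums in 7 pairs. Levels below are CPM of these sums after TMM scaling, with SD over 7 animals, and folds are log2 ratios, label over no label, from edgeR's quasi-likelihood fit with the animal as block over 9878 genes. Mcm2 was at 606.9 ± 108.2 CPM with the label and 104.9 ± 109.9 without, and Mcm5 at 575.8 ± 113.96 and 82.25 ± 76.13. Pcna, the sliding clamp of the polymerases, was at 252.6 ± 50.44 and 52.9 ± 28.18 CPM. For each of these 3 genes every cycling sum was above every sum without the label. Rrm2, which makes deoxynucleotides, was at 181.9 ± 65.77 CPM in cycling sums and had 1 count in the wells without the label, a ratio of 3036.9 with a 95% counting interval of 544.97 to 119958.9. Over the 35 G1/S genes the median log2 fold was 4.56.

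The mitotic genes were further apart. Cdk1 was at 209.7, 244.3, 147.3 and 239.6 CPM in the cycling sums of old 2, old 2-2, old 2-3 and old 3, and at 216.96, 96.6 and 152.02 in those of young 1, young 2-1 and young 2-3. Without the label it was at 1.47 CPM in young 1, 1.15 in young 2-1 and 0 in the other 5 animals. Ccna2, the cyclin of S and G2 phase, was at 203.9 ± 96.04 and 0.5307 ± 0.7449 CPM. Top2a and Mki67 were less clear cut, at 540.4 ± 191.2 against 38.83 ± 39.72 and 202.4 ± 91.61 against 43.11 ± 40.98 CPM. In young 2-1 Mki67 was lower with the label (24.2 CPM) than without it (51.9 CPM). The 37 G2/M genes had a median log2 fold of 7.96, and the 12 chromatin genes copied with replication, among them the histone variant H2afz (1292.4 ± 144.2 and 377.3 ± 127.5 CPM), 2.86. These 3 lists are what the label stands for, so they are given without a test.

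The bases upstream of 5 of these genes are shown because the members of both lists move together between the labels. They are the 250 bases before the start, from RefSeq on GRCm38.p6 (the deposited values were made on mm9), written 5′ to 3′ along the gene. Capitals mark CCAAT (the box bound by NF-Y), TTTGAA (the core of the cell cycle homology region) and TTTNGCGC (a form of the E2F site) on either strand.
Cdk1 (chr10:69352913-69353162, minus strand): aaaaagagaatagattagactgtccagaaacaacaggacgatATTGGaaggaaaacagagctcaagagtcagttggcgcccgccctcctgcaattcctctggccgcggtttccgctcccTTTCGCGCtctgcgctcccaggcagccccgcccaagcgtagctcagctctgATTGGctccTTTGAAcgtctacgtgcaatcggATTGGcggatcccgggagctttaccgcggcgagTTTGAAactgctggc
Top2a (chr11:99024190-99024439, minus strand): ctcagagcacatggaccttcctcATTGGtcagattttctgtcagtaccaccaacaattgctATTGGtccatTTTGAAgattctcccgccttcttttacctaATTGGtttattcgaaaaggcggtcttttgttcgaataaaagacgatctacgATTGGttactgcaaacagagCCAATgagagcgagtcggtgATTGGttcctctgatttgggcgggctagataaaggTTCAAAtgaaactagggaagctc
Mki67 (chr7:135716380-135716629, minus strand): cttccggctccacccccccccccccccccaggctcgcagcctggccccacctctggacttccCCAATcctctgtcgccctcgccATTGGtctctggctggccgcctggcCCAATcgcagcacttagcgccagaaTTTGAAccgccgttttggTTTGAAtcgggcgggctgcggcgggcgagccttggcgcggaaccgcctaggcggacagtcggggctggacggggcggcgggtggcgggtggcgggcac
Mcm2 (chr6:88898781-88899030, minus strand): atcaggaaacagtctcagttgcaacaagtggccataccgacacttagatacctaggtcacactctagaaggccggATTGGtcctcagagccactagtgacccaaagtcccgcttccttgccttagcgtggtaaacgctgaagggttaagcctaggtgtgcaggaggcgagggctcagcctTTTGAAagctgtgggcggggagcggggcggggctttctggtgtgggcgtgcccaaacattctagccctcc
Mcm5 (chr8:75109259-75109508, plus strand): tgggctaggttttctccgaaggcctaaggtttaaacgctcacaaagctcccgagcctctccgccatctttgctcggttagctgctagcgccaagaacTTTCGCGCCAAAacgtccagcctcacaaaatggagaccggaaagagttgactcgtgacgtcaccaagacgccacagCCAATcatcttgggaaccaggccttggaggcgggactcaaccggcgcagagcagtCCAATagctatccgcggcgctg
CCAAT occurred in 28 of 34 windows of the G2/M list (82.4%), in 20 of 33 of the G1/S list (60.6%) and in 33.8% of all 32851 windows of the table. TTTGAA occurred in 38.2% of G2/M windows, 12.1% of G1/S windows and 16% of all. TTTNGCGC occurred in 5.88%, 12.1% and 1.13%. The table held windows for 32 of 37 G2/M genes and 28 of 35 G1/S genes. A match is a description of these letters and no site of binding. In the windows printed, Top2a holds 6 CCAAT boxes over both strands and Mcm5 a pair of TTTNGCGC matches that overlap on opposite strands. The windows of Plk1 and of the myeloid gene Mpo were searched too and are not printed. Plk1 held 1 CCAAT and neither of the other motifs, and Mpo held none of them.

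Across all 9878 genes, 1.22% were called higher in cycling wells (edgeR adjusted p under 0.05) and 1 gene was called lower, 1.24% in both directions. Of the called genes 36 were in the 3 cell cycle lists, 11 in other lists and 75 in none. Of all 9878 genes 7970 had a positive fold. The median log2 fold of all genes was 0.92 and not 0, and it fell with abundance: 1.55 for genes with a mean log2 CPM from 4 to 5, 0.45 from 6 to 7 and 0.12 above 8. A fold of a weakly expressed gene is therefore read against that shift, which moved to 0.33 with animals of at least 5 wells without the label and to -0.02 with weights per sum in limma. The count of calls depended on single animals and on the tool. Leaving out an animal gave 34 to 74 calls, and within plate set A 3 genes and within plate set B 2 genes were called. DESeq2 called 1631 higher and 86 lower, and limma with a weight per sum 325 higher and 88 lower. In simulated data, with changed genes drawn at random from all abundances, an 8-fold change (log2 3) was called for 14% of them. For such a mix of genes most differences of that size would be missed. The share was not split by abundance, and abundant genes were called here at smaller log2 folds, such as Hspa8 at 0.67 and Ppia at 0.75.

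**Figure D3:**
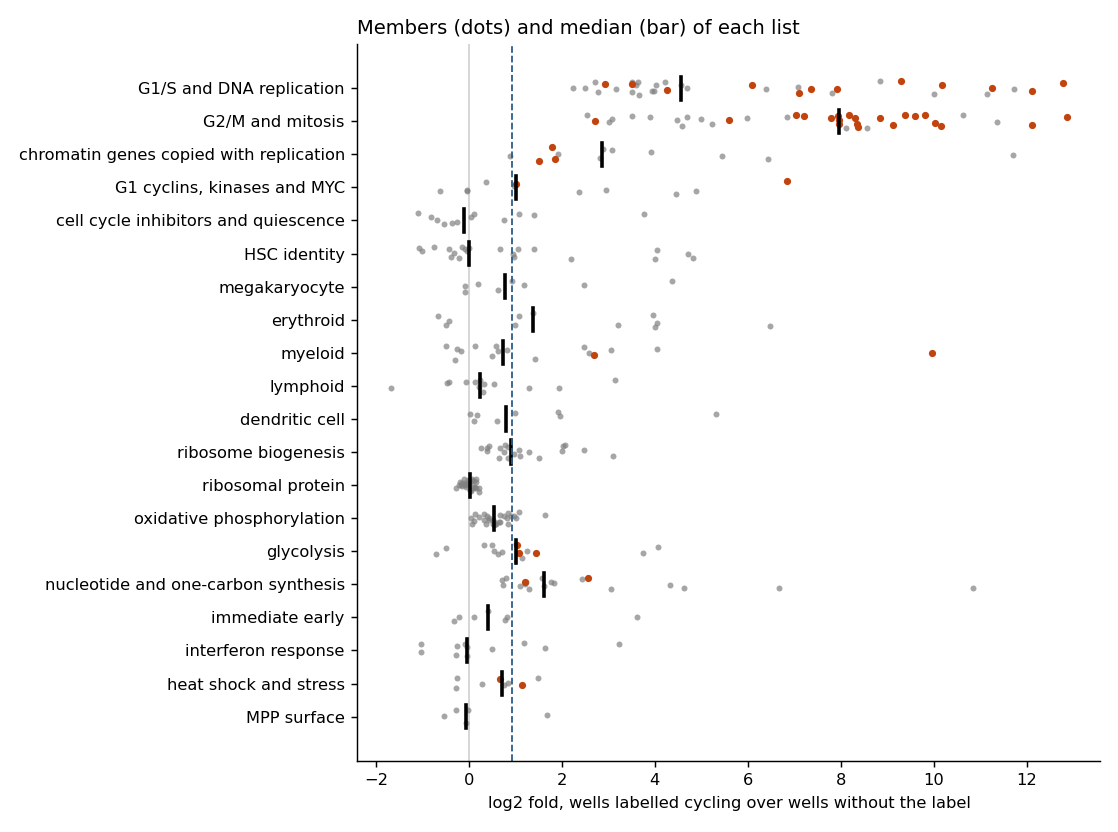
Log2 fold (x axis, wells labelled cycling over wells without the label) of each gene that passed the filter, by gene list with 5 or more such genes (y axis); red dots passed edgeR's adjusted p of 0.05, in the 3 cell cycle lists only as a description, black bars are list medians and the dashed line is the median of all genes at 0.92. The G1/S and G2/M lists lie far to the right, and the HSC identity, ribosomal protein and MPP surface lists lie at 0.01, 0.02 and -0.06.

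Most of the largest called folds outside the lists belonged to other genes of cell division and DNA repair, and are given without a test for the same reason. Fignl1 and Pbk had no count in the wells without the label. Taking 3 counts in all those wells as the floor, their ratios of scaled counts were at least 653.3 and 806.3. Kif22 and Ncaph, a mitotic kinesin and a condensin subunit, had none either, with ratios of at least 575.2 and 449.6 by that floor. These ratios cover the counting of reads only. They leave out which cells were sampled, so they do not bound the fold between the 2 kinds of cell. Racgap1 and Casc5, needed for cytokinesis and for the kinetochore, had 1 count each there. Wdr90 was at 76.72 ± 32 CPM with 5 counts in the wells without the label. Tubulins were also higher, chosen here after their values were seen: Tuba1b was at 3282.4 ± 537.6 against 410.75 ± 193.01 CPM and Tubb5 at 5039.0 ± 2243.1 against 1349.0 ± 431.4. So was Stmn1, which binds tubulin, at 774.7 ± 130.4 against 185.3 ± 47.83 CPM.

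The switches of G1 differed among themselves. Of 11 genes for G1 cyclins, their kinases and MYC, Cdk4 and E2f2 rose (median log2 fold 1.01). These genes belong to the cycle that the label names, so their p values describe the selection and are not independent evidence. Cdk4, the kinase partner of the D cyclins, was between 615.5 and 745.1 CPM in cycling sums and between 230.1 and 418.2 without the label, so the groups did not overlap (log2 fold 1.01 ± 0.18, edgeR adjusted p = 0.0181). E2f2 was low, at 10.11 ± 3.304 and 0.3402 ± 0.9 CPM (6.85 ± 1.45, adjusted p = 0.0437 by edgeR). Among the D cyclins, Ccnd3 was at 249.2 ± 61.44 and 126.3 ± 48.79 CPM and higher in 7 of 7 animals without passing the test (adjusted p = 0.12, edgeR), while Ccnd2 was at 329.3 ± 67.18 and 374.3 ± 209.1. Cdk6 had a log2 fold of -0.03 ± 0.28, and Myc was at 643.97 ± 90.84 and 499.9 ± 167.7 CPM (0.37 ± 0.21, adjusted p = 0.487, edgeR). Cdk4 lost its call when old 2, old 2-2, young 1 or young 2-1 was left out, and E2f2 lost it with each of the 7 animals left out in turn.

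No inhibitor of the cycle was called. Of 19 such genes and genes tied to quiescence 12 passed the filter, with a median log2 fold of -0.11 against 0.92 over all genes, 6 of them positive. The smallest p belonged to Rbl1 (p107), a pocket protein that holds E2F factors, which was higher with the label in 7 of 7 animals. It was at 68.93 ± 28.62 and 15.13 ± 19 CPM and did not pass (3.77 ± 1.64, edgeR adjusted p = 0.345). Cdkn1b (p27) was at 30.96 ± 18.75 with and 38.12 ± 27.56 CPM without the label. Btg2 was at 31.89 ± 17.5 and 75.78 ± 64.38 CPM, and the forkhead factor Foxo3 at 70.13 ± 38.19 and 108.6 ± 53.97. Foxo3 was lower with the label in 7 of 7 animals (log2 fold -0.69 ± 0.44, edgeR adjusted p = 0.535). Cdkn1a (p21) and Cdkn1c (p57) did not pass the filter. Cdkn1a was detected in 14.7% of cycling wells and 2.22% of the others, and Cdkn1c in 1.23% of cycling wells and in none of the 45 others. The single gene called lower was Map1lc3b, which codes for an LC3 protein of autophagosomes. It was at 262.8 ± 66.91 CPM with the label and 548.5 ± 136.6 without, lower in 7 of 7 animals with no overlap (-1.14 ± 0.22, adjusted p = 0.0259, edgeR). It lost its call with 6 of the 7 animals left out in turn (all but old 2-3), with adjusted p up to 0.108 in edgeR.

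**Figure D4:**
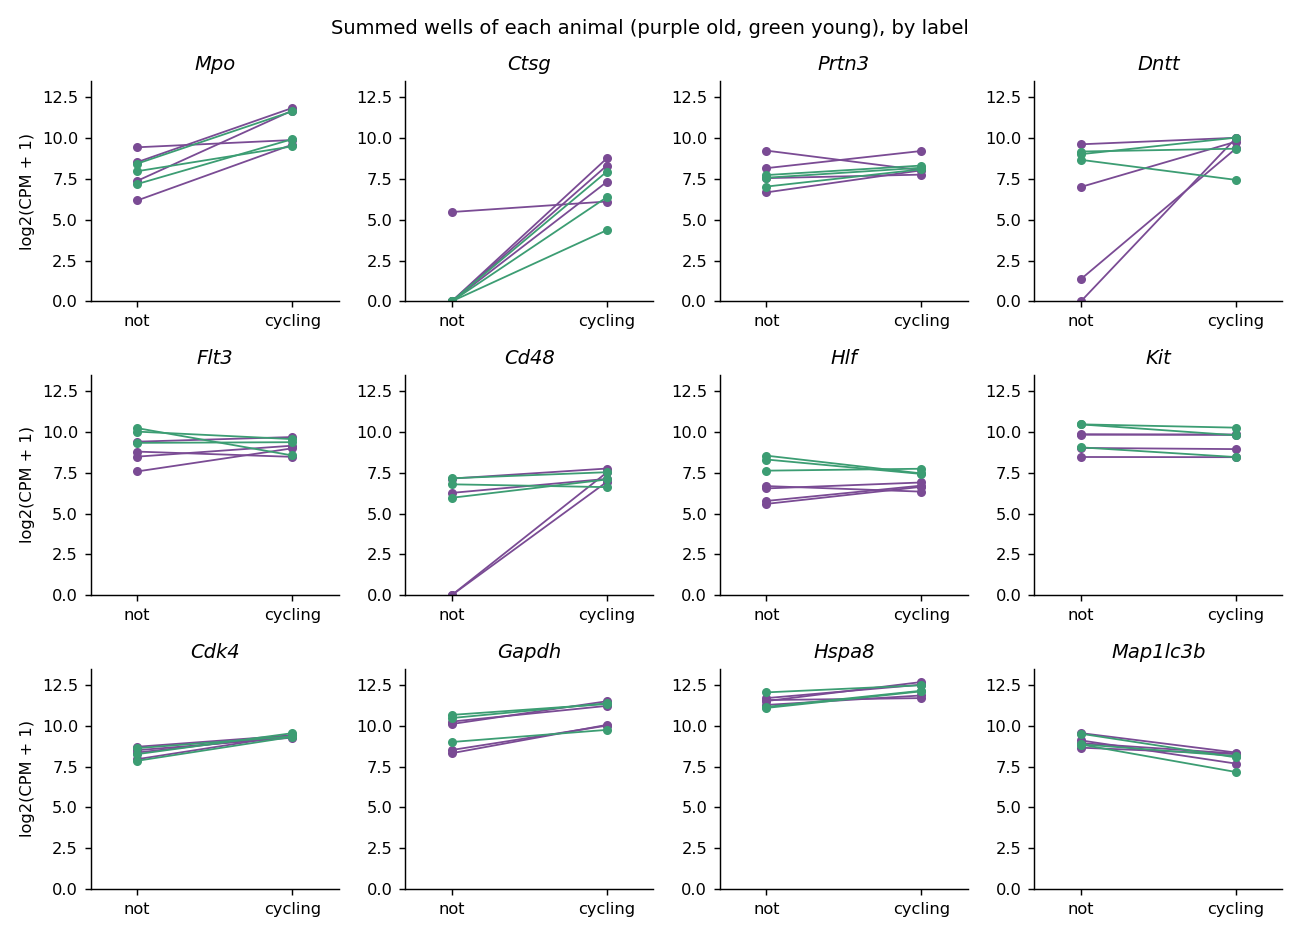
Log2(CPM + 1) (y axis) of 12 genes in the summed wells of each animal, without the label on the left and with it on the right of each panel, joined by a line (purple, 4 old animals; green, 3 young animals). Mpo, Cdk4, Gapdh and Hspa8 are higher with the label in 7 of 7 animals and Map1lc3b is lower in 7 of 7, while Flt3 goes both ways.

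Genes that mark stem cells had folds on both sides of 0. Of 26 HSC identity genes 21 passed the filter, none was called and their median log2 fold was 0.01. Over all genes with a mean log2 CPM from 5 to 6, where this list's median of 5.08 lies, the median log2 fold was 0.88. Meis1, a homeobox factor of stem cells, was at 255.3 ± 60.71 and 275.7 ± 156.5 CPM. Hlf was at 137.2 ± 49.32 and 168.7 ± 130.9 CPM. Hlf went up with the label in 4 animals and down in 3, and 3 of the 4 with a rise were old. Of the surface genes, Kit was at 732.9 ± 337.2 and 865.7 ± 427.7 CPM, and Cd34 had a log2 fold of -0.02 ± 0.14.

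The myeloid genes Mpo and Ctsg rose, and they were the only called genes of the 6 lineage lists in this fit. Of 27 myeloid genes 16 passed the filter (median log2 fold 0.72). The median over all genes of like abundance (mean log2 CPM from 5 to 6) was 0.88. Mpo, the peroxidase of neutrophil granules, was at 3299.1, 944.4, 3685.2 and 775.5 CPM in the cycling sums of old 2, old 2-2, old 2-3 and old 3. It was at 978.1, 721.7 and 3196.9 CPM in those of young 1, young 2-1 and young 2-3. Without the label the same animals had 165.9, 693.1, 368.5 and 71.6 CPM (old) and 144.7, 250.1 and 345.2 CPM (young). Every cycling sum was above every sum without the label, and 3 cycling sums, on both plate sets and of both ages, stood far above the other 4. The log2 fold was 2.70 ± 0.39 (edgeR adjusted p = 0.00678), 3.42 within plate set A and 2.10 within plate set B, and the call held with each animal left out. It was lost in the 4 animals with at least 5 wells without the label (1.96, adjusted p = 0.198, edgeR). The call was also lost within plate set B, within the old animals and within the young animals.

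Ctsg, the serine protease cathepsin G of the same granules, was at 317.7, 68.3, 432.5 and 158.4 CPM in the cycling sums of the old animals and at 82.2, 19.5 and 245.3 in the young ones, in the same order. Without the label it was found in 1 animal alone, old 2-2, at 43.4 CPM, in 3 of its 6 wells. Its fitted log2 fold (9.96, edgeR adjusted p = 0.0153) rests on the sums at 0, and the call was lost when old 2, old 2-3, old 3, young 1 or young 2-3 was left out, with adjusted p up to 0.0677 in edgeR. Per well, 30.7% with the label and 6.67% without had Ctsg. Among cycling wells the shares were 37.8%, 38.9%, 41.7% and 40.9% in old 2, old 2-2, old 2-3 and old 3, and 11.1%, 18.2% and 23.1% in young 1, young 2-1 and young 2-3. These shares did not overlap between the ages, while the CPM did, and the contrast was seen in the data first and is given with no test.

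The other granule genes did not pass. Prtn3, proteinase 3, was detected in 95.1% and 82.2% of wells and was at 315.6 ± 126.02 and 243.8 ± 168.6 CPM (0.49 ± 0.32, edgeR adjusted p = 0.538). Elane, neutrophil elastase, was detected in 6.13% of cycling wells and in 0 of 45 others. With 3 wells as the floor for a count of 0, a share of up to 6.67% is allowed there. So no difference was detectable at this number of wells. Where Elane was found it was high, with 836.3 CPM in the cycling sum of old 2-3 and 708.98 in old 2, and 0 in old 2-2 and young 2-1. Csf3r, the G-CSF receptor, was detected in 81.0% and 53.3% of wells, yet was at 156.2 ± 35.93 and 173.6 ± 200.01 CPM, with 599.6 CPM in the 2 wells of old 3 without the label.

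Lymphoid genes showed no call among the 13 of 29 that passed (median log2 fold 0.24). The median over all genes of like abundance (mean log2 CPM from 6 to 7) was 0.45. Dntt, the polymerase that adds bases to antigen receptor joints, was at 782.6 ± 318.5 and 345.7 ± 307.7 CPM (1.93 ± 1.22, adjusted p = 0.527, edgeR) and detected in 54.6% and 42.2% of wells. Old 2-3 and old 3, with 3 and 2 wells without the label, had 1.57 and 0 CPM there. With animals of at least 5 such wells the log2 fold was 0.07. Flt3 was at 578.5 ± 179.6 and 650.1 ± 364.4 CPM (-0.06 ± 0.29). Ltb, a cytokine of the TNF family, was at 32.99 ± 7.999 and 125.8 ± 68.44 CPM and lower with the label in 6 of 7 animals, which did not pass (-1.67 ± 0.62, adjusted p = 0.245, edgeR). Il7r was detected in 3.68% of cycling wells and in none of the others.

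Erythroid and megakaryocyte genes ranged from rare to common, and none was called. Of 24 erythroid genes 11 passed the filter (median log2 fold 1.39) and of 17 megakaryocyte genes 8 (0.78). The medians over all genes of like abundance were 1.55 (mean log2 CPM from 4 to 5) and 0.88 (from 5 to 6). Gata1, the erythroid and megakaryocyte master factor, was detected in 4.29% of cycling wells and 6.67% of the others, Klf1 in 0.613% and 6.67%, and Pf4 in 2.45% and 4.44%. Itga2b (CD41) was detected in 28.2% and 13.3% of wells (log2 fold 2.47 ± 2.06, edgeR adjusted p = 0.638). The factors Nfe2 and Fli1, which stem cells also express, were detected in 87.7% and 82.2% and in 82.8% and 77.8% of wells. The transferrin receptor Tfrc was detected in 40.5% and 13.3%, and the tetraspanin Cd9 in 46.0% and 22.2%. Cycling wells held more detected genes in all at equal depth, and the part of that in these shares was not tested. Car2 was at 435.3 ± 132.02 and 650.1 ± 308.9 CPM. Dendritic cell genes (8 of 13 passed, median log2 fold 0.8) and basophil, mast cell and eosinophil genes (2 of 13, 0.53) had no call. The median over all genes of like abundance (mean log2 CPM from 6 to 7) was 0.45.

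Genes of different lineages were often found in the same well. Mpo and Dntt were both detected in 70 cycling wells (42.9%) and 14 of 45 others (31.1%). Mpo alone of the pair was found in 40.5% and 28.9%, Dntt alone in 11.7% and 11.1%, and neither in 4.91% and 28.9%. Mpo with Flt3 was found in 69.9% and 53.3%. Of the 50 cycling wells with Ctsg 48 had Mpo too. Cycling wells held more detected genes in all at equal depth, though some genes, such as Ltb (31.3% and 60.0% of wells), were detected less often in them. The part of the higher total in the co-detection was not tested.

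Along the G2/M range of cycling wells the level of Mpo moved more than its share of wells. Mpo was detected in 82.1% of wells with 0 to 9 G2/M genes and in 84.6% of those with 28 to 37, while its mean was 723.2 CPM in the first range, 2535.1 and 3852.5 in the next ones and 3767.3 in the last. Ctsg averaged 43.4 CPM in the first and 590.2 in the last range. Flt3 went the other way, with 883.8 and 486.3 CPM. Dntt was at 1036.4 and 845.8 CPM. Within animals, Mpo was higher in the last than in the first range in 5 of 7 (not in old 2-2, and not in young 2-1 with 1 well there), and Flt3 in 1 of 7. These ranges and genes were chosen after the values were seen, wells of an animal are not replicates, and no test was made.

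**Figure D5:**
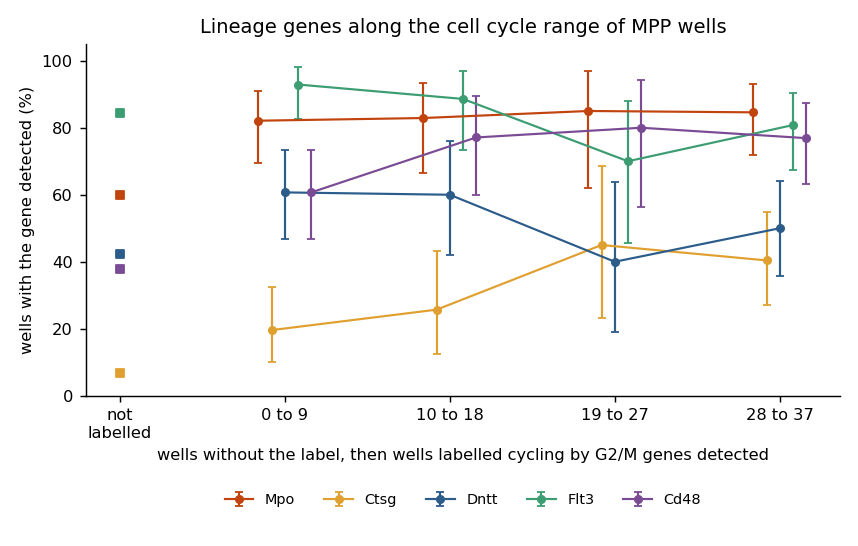
Share of wells (%, y axis) in which 5 genes were detected, for wells without the label (squares, no limits drawn) and for cycling wells by number of G2/M genes detected (circles, x axis), with exact 95% binomial limits over wells pooled across animals. Mpo stays between 82.1% and 85.0% in cycling wells against 60.0% without the label, and Ctsg goes from 19.6% in the first range to 40.4% in the last.

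Genes of growth and metabolism rose in part. Of 15 glycolysis genes Gapdh, Tpi1 and Ldha rose (median log2 fold 1.02). Gapdh was at 1921.8 ± 893.8 and 937.1 ± 532.7 CPM, higher in 7 of 7 animals (1.07 ± 0.13, edgeR adjusted p = 0.00224). Its cycling level was 858.3 to 1060.8 CPM on plate set A and 2378.6 to 2895.4 on plate set B, a gap the block takes up, and its log2 fold was 1.24 and 0.94 within them. Tpi1 was at 756.04 ± 156.7 and 294.2 ± 149.7 CPM, and Ldha, lactate dehydrogenase, at 1172.3 ± 130.9 and 580.8 ± 221.3, both without overlap. Ldha lost its call with each animal left out except young 2-3 (edgeR adjusted p up to 0.137), and Tpi1 without young 1 (0.0623). Aldoa, aldolase, had the opposite sign, at 469.0 ± 130.6 and 723.7 ± 173.1 CPM, and did not pass (-0.70 ± 0.18, edgeR adjusted p = 0.0851).

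Of 19 genes of nucleotide and one-carbon synthesis all had a positive fold (median 1.61) and Dut and Paics rose. Of all 9878 genes 7970 had a positive fold, and the median was 0.3 for genes with a mean log2 CPM from 7 to 8. Nucleotide supply is part of G1/S, so the p values of this list describe the selection and are not independent evidence. Dut, which keeps uracil out of DNA, was at 214.5 ± 32.07 and 42.9 ± 35.37 CPM (2.57 ± 0.45, adjusted p = 0.0176, edgeR), and Paics, a purine enzyme, at 735.1 ± 98.59 and 332.7 ± 155.9 (1.21 ± 0.25, adjusted p = 0.0392, edgeR). Paics lost its call with each of the 7 animals left out (edgeR adjusted p up to 0.127), and Dut without old 2-2, young 1, young 2-1 or young 2-3 (up to 0.0784). Mthfd2, the mitochondrial folate enzyme, had no count in the wells without the label (adjusted p = 0.095, edgeR). With a floor of 3 counts its ratio of scaled counts was at least 176.5, which covers the counting of reads only. Of 12 heat shock and stress genes 8 passed the filter and the chaperones Hspa8 and Hsp90aa1 rose. Hspa8 was at 4870.8 ± 1199.9 and 2920.7 ± 709.4 CPM (0.67 ± 0.11, adjusted p = 0.012, edgeR), a call that DESeq2 did not make (adjusted p = 0.12) and that was lost without old 3 (edgeR adjusted p = 0.053). Hsp90aa1 was at 540.8 ± 71.67 and 241.2 ± 66.25 CPM with no overlap, and lost its call without old 2-2, young 1, young 2-1 or young 2-3 (edgeR adjusted p up to 0.0784).

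Ribosome genes split into parts. All 20 ribosome biogenesis genes had a positive fold with a median of 0.91, and none was called. The median over all genes was 0.92, but lower at the abundance of this list (median log2 CPM 6.97). It was 0.45 for genes with a mean log2 CPM from 6 to 7 and 0.3 from 7 to 8. Nop58 came closest, at 312.7 ± 57.27 and 137.9 ± 73.48 CPM (adjusted p = 0.0897, edgeR). The 30 ribosomal protein genes had a median of 0.02 with 16 positive, and Rps9, for example, was at 1606.5 ± 406.03 and 1888.9 ± 580.8 CPM. The 29 oxidative phosphorylation genes were all positive (median 0.54, none called). Of all 9878 genes 7970 were positive, and the median was 0.3 from 7 to 8, where this list's median log2 CPM of 7.41 lies. Immediate early genes (7 of 16 passed) and interferon response genes (11 of 15) had no call, with medians of 0.41 and -0.04.

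No gene was called for a difference between the ages in these folds (0 of 9878, 0%, edgeR, with 438 genes at an unadjusted p under 0.05, while DESeq2 called 3.79%). Mpo differed between the ages by 0.40 ± 0.76 on the log2 scale, old minus young. Dntt differed by 4.94 ± 2.14, with an adjusted p of 1 by edgeR, and the old sums without the label hold 2 to 6 wells each.

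No gene was called between the folds of MPP and of unstimulated ST-HSC either (0 of 11266, 0%, edgeR, with 1289 at an unadjusted p under 0.05, while DESeq2 called 11.8%). The log2 fold of Mpo was 2.70 in MPP and 2.23 ± 2.32 in ST-HSC, and that of Mcm2 was 2.93 and 3.18 ± 0.43. Dntt was at 1.93 in MPP and -5.95 ± 2.33 in ST-HSC, and Flt3 at -0.06 and -0.95 ± 0.27. Their differences of 6.71 ± 2.22 and 0.86 ± 0.41 were not called (edgeR adjusted p = 0.284 and 0.431). The median log2 fold of all genes was 0.92 in MPP and -0.37 in ST-HSC. Ctsg did not pass the filter in ST-HSC. Median G2/M genes per cycling well were 16 in MPP and 6 in ST-HSC, and Mki67 was detected in 54% and 27.4% of them.

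Against stimulated MPP, 7 of 11292 genes (0.062%) were called for a different fold, 6 of them with a larger fold in unstimulated wells (edgeR). Mthfd2 had a log2 fold of 0.01 ± 0.31 in stimulated MPP, and the difference was called (adjusted p = 0.00092, edgeR). Hspa8 had a fold of 0.67 in unstimulated and -0.00 ± 0.05 in stimulated MPP (difference 0.65 ± 0.12, adjusted p = 0.0371, edgeR). Wdr90, Bhlhe40, Gadd45b and Relb were called with differences of 8.43, 6.61, 4.63 and 4.85, and Niacr1 with -6.32. Gadd45b and Relb are response genes of the NF-κB pathway that the ligands switch on. Their log2 folds within stimulated MPP were -0.51 ± 0.17 and -0.06 ± 0.12. The part of the ligand response in the called differences was not tested. Leaving out young 2-1 left 2 of such calls. Mpo had a log2 fold of 1.16 ± 0.30 in stimulated MPP (adjusted p = 0.0607, edgeR), and its difference of 1.51 ± 0.52 was not called (adjusted p = 0.434, edgeR). Comparisons of the treatments share no wells, but 7 animals gave wells to both.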

How the data were processed

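Single wells were profiled by SMART-seq2, per the labels' protocols. The authors deposited expected counts per gene, estimated by RSEM and held as whole numbers, and TPM (abundances scaled by gene length and to a fixed total in each well). RSEM and the mm9 genome are named in the submitters' processing notes; versions, aligner and annotation are not given in the sources used here. Both deposited tables hold 23366 gene symbols, and each column was matched by its exact title.

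The members and gene lists were chosen with earlier results of these data known. Expected counts were summed per animal and label, rounded, scaled by TMM and tested with edgeR 4.0.16 (quasi-likelihood, filterByExpr, animal as block, Benjamini-Hochberg over all genes tested, threshold 0.05) in R 4.3.3. limma 3.58.1, run also on log2(TPM + 1), and DESeq2 1.42.0 were alternatives. Sums of the same animal come from the same mouse, which pairs them; their deviations correlated at r 0.059 to 0.186 over 3684 genes, and at -0.417 to 0.279 with the plate set removed. Detection was counted after thinning each well to 100000 counts without Rn45s; 208 wells reached that depth, of totals from 6721 to 951806 counts. Limits are exact binomial (95%) and, like the floor of 3 counts, cover counting error only, since SMART-seq2 reads may be copies of 1 molecule. Named genes were a panel of 54, the 8 largest folds in each direction among called genes outside the cell cycle lists (mean log2 CPM 4 or more), and up to 4 members per list with the smallest p; others are said to be chosen later. The fit was tested on simulated data. Some genes that the rule names are not reported here.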

Additional observations from a re-analysis of the deposited data

Results flagged for a closer look

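In 21 groups of 4 to 7 animals (17.4% of those looked at) 1 animal was far from the rest by Dixon's criterion, where chance gives about 1 in 20. CPM is on a linear scale, and several sums without the label hold few wells. Among cycling sums, young 2-1 was low for Top2a (140.6 CPM) and young 2-3 low for Mcm5 (334.4). High ones were Gata2 at 109.3 and Wdr90 at 143.2 CPM in young 2-3, Prtn3 at 592.5 in old 2-3, Fignl1 at 295.2 in old 2-2, Tpi1 at 1086.8 in young 1 and Dut at 279.1 in old 3.

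Among sums without the label, old 3, with 2 wells, was high for Mcm2 (349.0 CPM), Procr (55.3), Prtn3 (602.02), Csf3r (599.6) and Dut (117.1). Old 2-2 was high for Ccnd1 (32.9) and Ctsg (43.4). Young 1 was high for Mecom (71.3), Racgap1 (0.183), Casc5 (0.183), Wdr90 (0.916) and E2f2 (2.38). Of these genes Ctsg, Racgap1, Casc5, Wdr90 and E2f2 had counts without the label in 1 animal alone. Their flags were therefore fixed in advance, and they are part of the 17.4%. The share labelled cycling in old 2-2 (76.9%) was far below the other old animals.

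For 7 genes the log2 fold between the labels differed between unstimulated and stimulated MPP in edgeR's interaction test: Mthfd2 by 10.59, Wdr90 by 8.43, Bhlhe40 by 6.61, Relb by 4.85, Gadd45b by 4.63, Hspa8 by 0.65 and Niacr1 by -6.32. Mthfd2 had no count in the unstimulated wells without the label, so its difference is no bound.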

How the results depend on the processing

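The share of genes called between the labels was 1.24%, and 2.21% with no replicate block, which ignores that sums of the same mouse are paired. It was 17.4% with DESeq2 (1631 genes higher, 86 lower), 4.18% with limma and a weight per sum (325 higher, 88 lower), 9.43% on log2(TPM + 1) and 11.1% on log2(TPM + 0.1). It was 0.247% (25 genes) in the animals with at least 5 wells without the label, 0.0283% in plate set A, 0.0205% in plate set B, 0.0413% in old and 0.0391% in young animals. With each animal left out in turn it ran from 0.353% (without young 1) to 0.742% (without old 2-3). DESeq2 called 3.79% for the age difference and 11.8% for MPP against ST-HSC, where edgeR called none, and 5.66% for unstimulated against stimulated MPP. There edgeR called 0.062%, and 0.0177% to 0.08% with each animal left out. The cause of these moves was not tested, beyond the smaller number of animals in the subsets. Of 2676 values of the named genes under alternatives, 2379 stayed on their side of the threshold (for cell cycle genes, within the standard error of the fold), 185 of them with a change of sign and no call either way. Another 68 cell cycle values moved further, 158 lost a call and 71 gained it, and none with a call changed sign. The difference in detected genes ran from 1007.9 to 1164.6 over its alternatives. Wells without the label, 2 to 14 per animal, limit what can be seen.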
